A study of Homo sapiens with 22 samples.

Results

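The olfactory receptor genes of human chromosome 11 were examined for transposon insertions in K562 cells. The members were the protein-coding genes of this chromosome in GENCODE version 44 whose symbol is OR, a number, letters and a number. There were 172 such genes. OR51B4 and OR51B2 lie within an interval of 130 kb around the beta-globin genes, from 5.2 Mb on in genome build hg38, and were left out, which left 170 members of 19970 protein-coding genes on chromosomes 1 to 22 and X. OR51V1 and OR51B5 overlap that interval in part and were kept. The rule takes genes by name and position.

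Olfactory receptors are G protein-coupled receptors that detect odorants at the surface of sensory neurons in the nose. They form the largest gene family of the human genome and lie in clusters on many chromosomes, of which chromosome 11 holds the most. A mature olfactory neuron expresses a single receptor allele, and in other cells the clusters are largely silent and packed in heterochromatin. The class I receptors, of the families OR51, OR52 and OR56, resemble the receptors of fish and share 1 cluster on the short arm, inside which the beta-globin genes lie. Most coding sequences have no intron. K562 is an established human leukemia line with erythroid features, in which fetal and embryonic globin genes are active. Receptor transcription in olfactory neurons could not be examined in these cells.

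In Calling Cards, a transposase inserts a self-reporting transposon (SRT) into the genome and the RNA made from the transposon is read to find where it landed. The piggyBac transposase (PBase) inserts into TTAA tetranucleotides. K562 cells received 5 µg of the barcoded, puromycin-selectable PBase SRT donor and 5 µg of helper plasmid, which was hyPBase in 10 libraries and hyPBase-centrip in 10. All libraries passed through 11 days of puromycin selection, and RNA was isolated from sets of 3 transfections, so that a library holds a pool of cells from 1 line. The sources used here do not say how hyPBase-centrip differs. No library without a helper was analysed here, and 2 further libraries whose labels name different helpers entered no comparison.

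The 20 libraries held from 1509672 to 3596762 insertions, from 69835 to 164983 of them on chromosome 11 and from 1666 to 3895 in the windows of the members. All 11 of the erythroid and K562 marker genes checked, among them GATA1, lay above the density of their chromosome, and CDKN2B, within a deletion known from this line, had 0 insertions in its window in all 20 libraries. The 7 markers of olfactory neurons were mixed (3 higher, 2 lower, 2 neither), as were 5 lymphoid markers (2 higher, 3 lower). Pairs of libraries with consecutive replicate numbers shared 1.08 ± 0.035 times as many insertions of chromosome 11 (position, orientation and barcode) as independent barcodes would give (SD over 18 pairs). The ratio was 0.993 ± 0.022 for 72 other pairs within a helper and 0.982 ± 0.0066 for 100 pairs between helpers. Libraries of a helper may therefore not be fully independent, and p-values measure the spread between these libraries only.

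The windows, each a gene body with 5 kb on either side, held 18005 TTAA sites. These were hit in 52.2%, and 48.8% of the TTAA sites of the whole chromosome were. The members fell into 7 clusters, divided wherever neighbouring members lay more than 1 Mb apart. The most frequently hit TTAA of the 6 clusters with several members is printed here to show the sequence used most in each. The sites of clusters 1 and 7 lie in receptor coding sequence and the others outside receptor genes. Each line gives 60 bases of the plus strand of hg38, with the TTAA in capitals and 28 bases on each side.
Cluster 1, within the coding sequence of OR52A5, chr11:5131890-5131949: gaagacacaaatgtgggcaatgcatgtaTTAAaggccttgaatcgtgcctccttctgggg
Cluster 2, past OR4S1, chr11:48307967-48308026: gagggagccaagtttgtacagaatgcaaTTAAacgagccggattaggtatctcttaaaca
Cluster 3, before OR4C13, chr11:49949833-49949892: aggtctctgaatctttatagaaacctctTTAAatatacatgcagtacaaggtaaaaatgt
Cluster 4, before OR8J1, chr11:56351360-56351419: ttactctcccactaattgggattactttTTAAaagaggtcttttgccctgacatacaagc
Cluster 5, before OR10V1 and in an intron of STX3, chr11:59716157-59716216: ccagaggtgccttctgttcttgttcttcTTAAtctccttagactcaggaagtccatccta
Cluster 7, within the coding sequence of OR8B8, chr11:124440796-124440855: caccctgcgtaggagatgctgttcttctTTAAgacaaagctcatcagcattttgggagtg

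These sites differed widely in use. The OR52A5 site (chr11:5131918-5131921) received 734 insertions in 20 of 20 libraries, 369 in the plus and 365 in the minus orientation. The OR8B8 site received 174 and the OR10V1 site 66 insertions, each in 20 libraries. In clusters 2, 3 and 4 the most used site held 14, 5 and 12 insertions, from 11, 5 and 9 libraries. The median TTAA site held 0 insertions in each of these 3 clusters, 1 in clusters 1, 5 and 7, and 7 in the window of OR2AT4.

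Insertion density was expressed as insertions per TTAA site over the same quantity for chromosome 11 in the same library. Over the union of all member windows the ratio was 1.08 ± 0.026 (SD, n = 20 libraries), with a lowest library of 1.003, a median of 1.08 and a highest of 1.13. It turned below the chromosome in 5 alternatives, at 0.993 with at least 3 reads per insertion, 0.967 with 10 kb flanks, 0.927 without the members overlapping the left-out interval, 0.922 with windows on coding parts and 0.641 without OR2AT4 and the near-globin members. The sum held opposite levels. The median member lay at a log2 ratio of -0.98, whereas the median of all 19882 protein-coding genes with at least 10 TTAA sites lay at 0.42. In a quasi-likelihood test with edgeR over all these genes (Benjamini-Hochberg adjusted p below 0.05), 125 of the 170 members were lower than the chromosome, 26 were higher and 19 did not pass. With barcodes collapsed, that is, each position and orientation counted once per library, 94 were lower and 49 higher. Without flanks 45 were lower and 23 higher, among members with at least 10 TTAA sites in the body. The shares of all genes in these alternative fits are not given here. In the first fit, with flanks and every barcode counted, 33.5% of all genes tested were called lower and 58.4% higher. A density of at most 0.5 times the chromosome, with the call, was found for 84 members (49.4%) and for 16.3% of all genes, and a density of at least 2 times for 15 members and for 31.2% of all genes. In 91 members (53.5%) all 20 libraries lay below the chromosome, as they did for 23.8% of all genes.

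**Figure D1:**
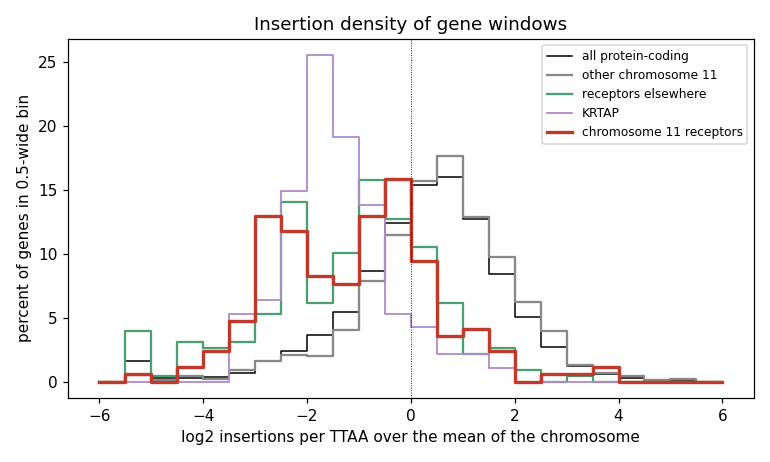
Percent of genes (vertical axis) by log2 insertions per TTAA over the mean of the gene's own chromosome (horizontal axis, bins of 0.5), for the 170 members, the 228 receptor genes of other chromosomes, 94 KRTAP genes, the other chromosome 11 genes and all protein-coding genes. Genes below the scale are drawn in the lowest occupied bin. The members spread to the left of the other genes of their chromosome, with medians of -0.98 and 0.58.

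Other gene families in clusters gave a scale for these values. The 228 receptor genes elsewhere had a median of -0.93 against their own chromosomes, with 167 lower and 45 higher. The 94 KRTAP genes, which encode keratin-associated proteins of hair, had a median of -1.54, with 82 lower and 7 higher. Of 1136 other protein-coding genes of chromosome 11, 308 were lower and 729 higher, with a median of 0.58. These groups were compared by counts and medians only.

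The levels followed the clusters. Cluster 4 (chr11:54603069-56989843, OR4C46 to OR5AK2), the long cluster next to the centromere on the long arm, had a density ratio of 0.164 ± 0.014, from 0.132 to 0.186 with a median of 0.165 over 20 libraries. All 51 of its members were lower, with log2 ratios from -5.12 to -1.63. Cluster 2 (chr11:48216810-48489722) and cluster 3 (chr11:49952391-50033794), on the other side of the centromere, lay at 0.230 ± 0.063 and 0.161 ± 0.047, and all 7 and all 3 members were lower. In these 3 clusters no library of the 20 reached the density of the chromosome. Counting distinct positions gave 0.259 for cluster 4, 0.363 for cluster 2 and 0.252 for cluster 3, and cluster 3 without flanks lay at 0.318.

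Low density was not limited to the windows of the genes there. The DNA between the windows of cluster 4 lay at 0.112 ± 0.0096, from 0.0935 to 0.127, and 86.6% of its TTAA sites had unique flanks. The 5 other annotated protein-coding genes in its span were also lower, among them TRIM48 (0.0565 ± 0.037, 21 insertions) and TRIM51 (0.0643 ± 0.075, 26 insertions), which encode proteins with a RING finger. In TRIM48 and TRIM51 only 48.1% and 45.6% of TTAA sites had flanks that were unique in the genome, and the 3 others, with 97.4% to 100%, lay between 0.123 and 0.184. Of these 5, OR5D3P and OR5AK3P carry receptor symbols ending in P that the naming rule does not take. The spaces between the windows of clusters 2 and 3 lay at 0.10 ± 0.024 and 0.0754 ± 0.043. In these spans 66.6% and 78.4% of TTAA sites between windows, and 84.9% and 74.8% within windows, had flanks that were unique in the genome. The share within the windows of cluster 4 was 95.1%, and restricting the count to such sites gave 0.162 there. Copy number was not measured, and fewer copies of a region and fewer insertions per copy cannot be told apart.

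The lowest members all lay in cluster 4. OR4A5 received 7 insertions at 84 TTAA sites over the 20 libraries, from 0 to 2 in a library with a median of 0, and 14 libraries had 0. Its ratio was 0.0300 ± 0.051, and 73.8% of its TTAA sites had unique flanks. OR4A8 received 13 insertions (0.0490 ± 0.061), though only 45.6% of its TTAA sites had unique flanks. OR4S2, where all sites were unique, received 18 insertions at 120 TTAA sites, from 0 to 3 in a library (0.0545 ± 0.059). Even the highest members of the cluster, OR5W2 (0.313 ± 0.17), OR5AK2 (0.313 ± 0.15) and OR8U3 (0.303 ± 0.16), had no library above the chromosome. In cluster 2 the ratios ran from 0.128 ± 0.098 for OR4C3 through OR4A47 (0.152 ± 0.11), OR4C5 (0.155 ± 0.14), OR4X1 (0.222 ± 0.13), OR4S1 (0.258 ± 0.14) and OR4B1 (0.309 ± 0.14) to 0.433 ± 0.18 for OR4X2. Neighbours in that order overlapped within their SD. In cluster 3 the ratios were 0.125 ± 0.093 for OR4C45, 0.148 ± 0.12 for OR4C12 and 0.199 ± 0.11 for OR4C13.

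**Figure D2:**
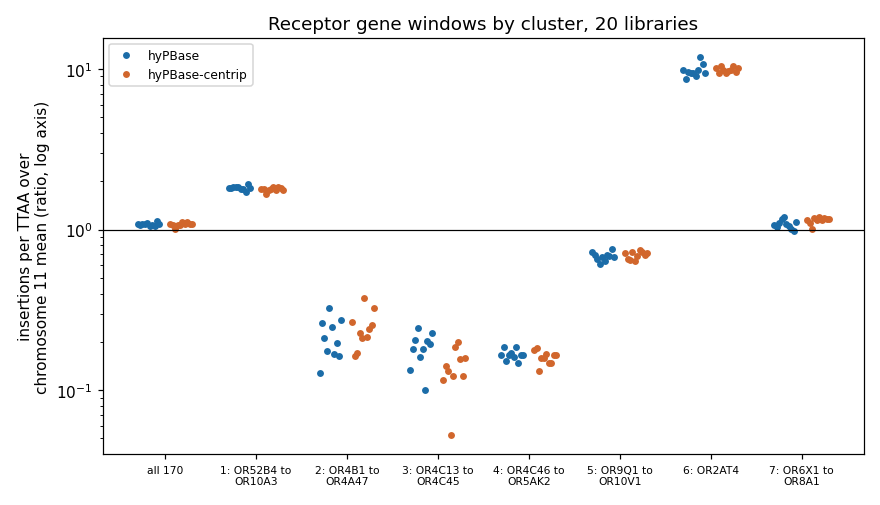
Insertions per TTAA over the chromosome 11 mean (vertical axis, logarithmic) for the windows of all 170 members and of each cluster. Each point is a library, 10 with hyPBase and 10 with hyPBase-centrip. Clusters 2, 3 and 4 lie at or below 0.373 in every library and OR2AT4 alone lies between 8.63 and 11.9.

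Cluster 5 (chr11:58023881-59713845, 21 members) lay at 0.688 ± 0.040, from 0.615 to 0.762, and the DNA between its windows at 1.38 ± 0.038. Of its members 14 were lower, 3 higher and 4 neither. The lowest were OR1S2 (0.144 ± 0.10, 31 insertions), OR10W1 (0.215 ± 0.12) and OR5B2 (0.219 ± 0.11). The 3 that were higher were OR10V1 (2.92 ± 0.44, from 14 to 51 insertions per library with a median of 27.5), OR4D11 (2.35 ± 0.47) and OR4D9 (2.32 ± 0.39). OR10V1 and OR4D9 exceeded the chromosome in all 20 libraries and OR4D11 in 19. The window of OR10V1 reaches into STX3, a syntaxin gene.

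Cluster 7 (chr11:123753580-124582942, 22 members) lay at 1.11 ± 0.067, from 0.981 to 1.195, and the DNA between its windows at 1.84 ± 0.070. Here 13 members were lower, 7 higher and 2 neither. OR10D3 was the highest (3.14 ± 0.34, from 25 to 76 insertions per library), followed by OR8G1 (1.68 ± 0.27) and OR8D1 (1.54 ± 0.24). OR10G6 (0.332 ± 0.27), OR6T1 (0.469 ± 0.21) and OR4D5 (0.477 ± 0.19) were the lowest. The cluster mean fell to 0.994 with insertions of at least 2 reads.

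OR2AT4 stood alone on the long arm (chr11:75081753-75096876, minus strand) and is a receptor for synthetic sandalwood odorants that is also known from skin. Its window received 4430 insertions, from 142 to 299 per library with a median of 223.5. The density was 9.85 ± 0.70 times the chromosome (log2 ratio 3.29, adjusted p = 3.76e-136 by the edgeR quasi-likelihood test), and all 20 libraries exceeded 8.63. SLCO2B1, an organic anion transporter gene that begins next to OR2AT4 on the other strand, lay at 5.74 ± 0.43. Counted once per position and orientation in a library, the window of OR2AT4 lay at 5.34, counted once per position at 4.69, and built on the coding part with 5 kb flanks at 4.74. The window as annotated takes in the start of SLCO2B1.

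Cluster 1 (chr11:4367263-7941708, 65 members, OR52B4 to OR10A3) lay at 1.80 ± 0.052, from 1.67 to 1.92 with a median of 1.80, and held 64.5% of the insertions of all clusters. The DNA between its windows lay at 1.68 ± 0.035. The left-out interval, at 12.3 ± 0.68, lies within this span, and its part in that value was not measured. Yet 37 of its members were lower than the chromosome, 15 higher and 13 neither, and its median member was at 0.828. All 53 class I receptors lie here. Of these 29 were lower, 12 higher and 12 neither, with a median log2 ratio of -0.21. The 42 class I receptors outside the near-globin set had 27 lower, 5 higher and 10 neither, with a median of -0.34. The 117 class II receptors of the chromosome had 96 lower and 14 higher, with a median of -1.93, but the 12 of them in cluster 1 had a median of -0.36, so that class and cluster cannot be told apart over the other members. OR5P2 (0.167 ± 0.13), OR10A6 (0.213 ± 0.11) and OR5P3 (0.261 ± 0.12), all class II, were the lowest of the cluster.

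The beta-globin genes lie inside cluster 1, and the receptors near them were compared with the others of the cluster. The 11 members within 150 kb of the left-out interval lay at 3.99 ± 0.19, from 3.71 to 4.53, and the other 54 members at 0.966 ± 0.044, from 0.894 to 1.05. The ratio of the near to the other members was 4.14 ± 0.31 and the groups did not overlap in any library. Bases in windows of both groups were counted as near only. The window of OR51B5 holds 1370 of the 1922 TTAA sites of the near group. It takes in the whole window of OR52D1, which therefore added nothing to the value of the other members. Without OR51V1 and OR51B5, which overlap the interval, the ratio was 4.32. The interval itself lay at 12.3 ± 0.68 and the windows of the 2 receptors left out at 3.31 ± 0.44. Without OR2AT4 and these 11 members, the remaining windows of chromosome 11 lay at 0.641 ± 0.024.

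The near members were far from uniform. OR52A5 (chr11:5128776-5138356) was the highest of all 170 members. It received 6560 insertions, from 199 to 410 per library with a median of 331, which was 13.3 ± 1.05 times the chromosome (log2 ratio 3.72, adjusted p = 1.09e-149, edgeR). OR51V1 (chr11:5199735-5200682) received 3083 insertions, from 68 to 202 per library, and lay at 11.7 ± 1.31. Of these insertions 51 lay in its body, at 3 TTAA sites, and its window reaches into the left-out interval. OR52A1 (chr11:5146824-5154757) received 2597, from 71 to 172, and lay at 7.24 ± 0.64. These 3 genes follow each other on the side of HBB, and the lowest value of any library in them was 6.26.

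The remaining 8 near members lay lower. OR52E1 (1.11 ± 0.28) was called higher and OR52E2 (0.794 ± 0.20) lower (adjusted p = 0.046 and 2.95e-04, edgeR), and the libraries of each lay on both sides of the chromosome level. On the side of the embryonic globin gene, OR51B6 lay at 0.594 ± 0.22 and was below the chromosome in 20 of 20 libraries. OR51M1 (1.003 ± 0.28) and OR51Q1 (0.902 ± 0.26) did not pass the test (adjusted p = 0.773 and 0.185, edgeR). OR51I1 (1.93 ± 0.34) and OR51I2 (2.18 ± 0.40) were higher in all 20 libraries. OR51B5, whose annotated body covers 202209 bases and runs through several of these genes, lay at 2.41 ± 0.16 with 9594 insertions. Just inside the limit of 150 kb, OR52E2 (140.4 kb) lay at 0.794, and just outside it OR52J3 (152.5 kb) lay at 1.12 and OR52D1 (158.7 kb) at 2.58.

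In bins of 50 kb, the density fell from 5.70 ± 0.31 and 7.21 ± 0.43 in the first and second bin on the HBB side to 1.24 ± 0.19 in the next and 0.788 ± 0.14 between 150 and 200 kb. On that side it was 1.71 ± 0.12 between 500 and 550 kb and 2.02 ± 0.21 between 550 and 600 kb. On the opposite side it was 2.73 ± 0.35, 1.02 ± 0.21 and 1.91 ± 0.22, and rose again to 4.63 ± 0.42 between 150 and 200 kb. Farther out on that side, OR52H1 (214.5 kb) lay at 3.18 ± 0.46 and OR52B6 (250.9 kb) at 1.14 ± 0.40. Of the 47 other protein-coding genes in the span of cluster 1, 28 were higher and 15 lower, with a median log2 ratio of 0.38, where 58.4% of all genes were higher. The 14 neighbours listed by name, 5 of them globin genes of the left-out interval, had 12 higher and 2 lower (TRIM21 at 0.581 ± 0.22 and MMP26 at 0.639 ± 0.053).

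**Figure D3:**
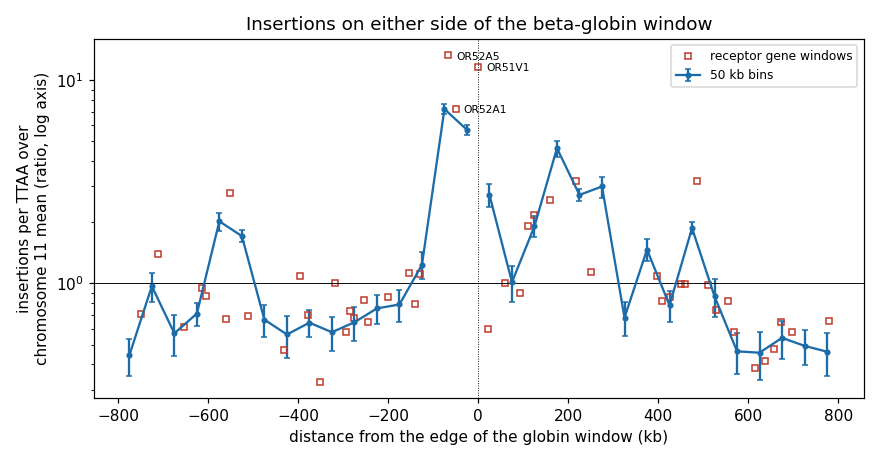
Insertions per TTAA over the chromosome 11 mean (vertical axis, logarithmic) against distance from the nearer edge of the beta-globin interval in kb (negative on the HBB side). Blue points are 50 kb bins with the SD over 20 libraries and red squares are windows of receptor genes, without OR51B5. OR52A5, OR51V1 and OR52A1 lie at 13.3, 11.7 and 7.24, and most other squares lie near or below 1.

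Bodies of receptor genes were also set against their flanks. Member bodies lay at 1.56 ± 0.052 and their 5 kb flanks at 0.822 ± 0.032, a ratio of 1.90 ± 0.10. Other protein-coding genes of the chromosome had the opposite order, with 1.16 ± 0.0055 in bodies, 2.33 ± 0.041 in flanks and a ratio of 0.498 ± 0.010. Receptor bodies are short, with a median length of 1095 bases and a median of 5 TTAA sites, and 13 members have none. Of the 28228 insertions in member bodies, 8768 lay in that of OR51B5 (with the genes inside it) and 5029 in that of OR52A5. In members with bodies under 20 kb the ratio was 1.92 ± 0.085. Over the 158 members other than OR2AT4 and the near-globin genes it was 1.27 ± 0.067, from 1.16 to 1.39.

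Density was then followed along the genes from their starts. Around the starts of other chromosome 11 genes, density peaked at 5.48 ± 0.15 in the kilobase before the start and 5.42 ± 0.33 in the kilobase after it. In receptor genes these values were 1.16 ± 0.064 and 0.923 ± 0.12, within the range of 0.603 to 1.19 seen over all bins within 20 kb. The annotated body is under 1500 bases in 94 of the 170 members, so some annotated starts may be those of the coding sequence. Whether they are starts of transcription was not checked, and the compared groups of starts may differ in this. The upstream flank of the receptors lay at 0.858 ± 0.036 and the downstream flank at 0.777 ± 0.038, a ratio of 1.10 ± 0.046, against 3.03 ± 0.055 and 1.88 ± 0.048 for the other genes (ratio 1.61 ± 0.032).

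**Figure D4:**
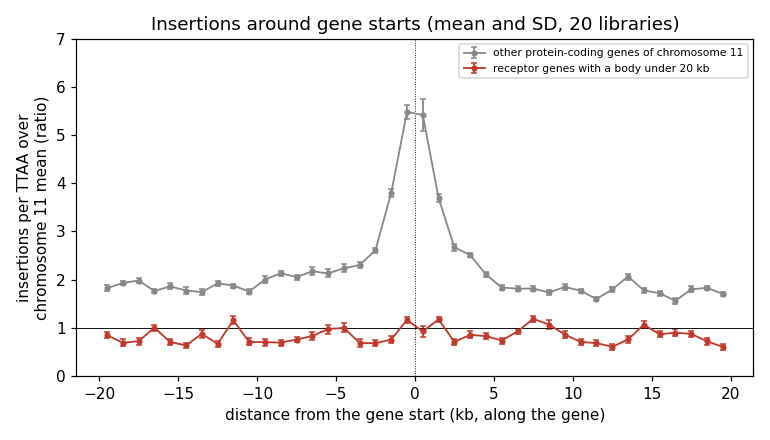
Insertions per TTAA over the chromosome 11 mean (vertical axis) in 1 kb bins from 20 kb before to 20 kb after the annotated gene start (horizontal axis, along the gene). Points are means and bars SD over 20 libraries, for receptor genes with bodies under 20 kb and for the other protein-coding genes of the chromosome. The other genes peak at 5.48 before the start, whereas the receptors stay between 0.603 and 1.19. Some annotated receptor starts may be those of the coding sequence.

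The base composition of these starts differed from that of most genes. RefSeq promoter sequences (GRCh38.p14) were matched by symbol for 133 members, and all 133 equalled hg38. In the 250 bases before the start the median G+C was 36.4% with 1 CpG, against 58.0% and 11 over 27305 genes. The letters TTAA occurred in 78.9% of member promoters and 43.8% of all, TATAAA in 33.1% and 11.1%, and TAATTA in 21.8% and 4.49%, each searched on both strands. Matches of TAATTA can share bases with those of the other motifs. They describe letters only. Where a member is annotated with little beyond its coding sequence, the bases called its promoter may lie before the start codon instead. The promoters of members and of all genes may therefore not be alike in kind. Member windows held 7.36 TTAA per kb against 6.15 for the chromosome, and the coding parts of the members 2.49 per kb.

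The 250 bases before OR51V1, OR52A5 and OR4S2 are printed 5′ to 3′ along the gene with TTAA in capitals, because they were picked to show the range from heavy to no use.
OR51V1, chr11:5200683-5200932, minus strand: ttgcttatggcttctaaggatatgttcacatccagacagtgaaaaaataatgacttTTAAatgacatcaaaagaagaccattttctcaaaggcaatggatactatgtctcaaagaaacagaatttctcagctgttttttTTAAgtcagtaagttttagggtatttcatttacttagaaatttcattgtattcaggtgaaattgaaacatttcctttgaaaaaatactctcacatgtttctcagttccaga
OR52A5, chr11:5138357-5138606, minus strand: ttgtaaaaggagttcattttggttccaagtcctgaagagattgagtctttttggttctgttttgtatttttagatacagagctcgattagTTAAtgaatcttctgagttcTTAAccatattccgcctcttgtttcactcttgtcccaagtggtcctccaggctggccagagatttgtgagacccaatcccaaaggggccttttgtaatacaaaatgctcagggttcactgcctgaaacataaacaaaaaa
OR4S2, chr11:55648077-55648326, plus strand: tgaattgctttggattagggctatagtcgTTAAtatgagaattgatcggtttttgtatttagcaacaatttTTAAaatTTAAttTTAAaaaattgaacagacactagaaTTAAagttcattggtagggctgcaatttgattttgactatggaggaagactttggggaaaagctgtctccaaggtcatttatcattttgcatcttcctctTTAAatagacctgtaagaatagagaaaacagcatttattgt
The 2 sites before OR51V1 received 95 insertions, from up to 19 libraries at a site. The 2 before OR52A5 received 10, although the body of that gene holds the most used site of the cluster. The 6 before OR4S2 received 0 over the 20 libraries, where a count of 0 allows up to 3 by counting error alone. Spread between libraries is not part of that limit.

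Orientation was measured in bodies that overlap no protein-coding gene on the other strand, which applied to 147 members and left out 23. The share of insertions in the orientation of the gene was 48.9% ± 1.07 for the members (SD, n = 20, 16335 insertions), from 46.4% to 51.1% with a median of 48.9%. The other chromosome 11 genes measured the same way had 32.6% ± 0.80, from 31.3% to 33.8%. The difference was 16.2 ± 1.36 percentage points and no library of the members overlapped any of the other genes. Receptor genes of other chromosomes had 45.9% ± 1.80. OR2AT4 carried 2070 of the insertions, and without it the share of the members was 50.0% ± 1.24. Without it and the near-globin members it was 48.5% ± 2.58, from 43.5% to 52.9%, over 7344 insertions.

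Of the 170 members, 40 had at least 40 insertions in such a body and entered the edgeR test of same against opposite orientation. These 40 were the longer or denser members. Fewer same-strand insertions were called in 10 of them (25%) and more in 10 (25%), with a median log2 ratio of -0.07. Over 11997 genes tested, 78.7% had fewer, 6.82% had more and the median was -1.06. Split by density, 0 of 5 members at or below 0.5 times the chromosome passed in either direction, where 70.4% of 1600 genes had fewer and 4.38% more. Between 0.5 and 1 times, 5 of 19 members had fewer and 6 more, where 76.7% of 2669 genes had fewer and 5.43% more. Between 1 and 2 times, 4 of 9 members had fewer and 0 more, where 83.2% of 3962 genes had fewer and 5.78% more. Over 2 times, 1 of 7 members had fewer and 4 more, where 78.9% of 3766 genes had fewer and 9.93% more. The part of density in the orientation values was not tested.

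**Figure D5:**
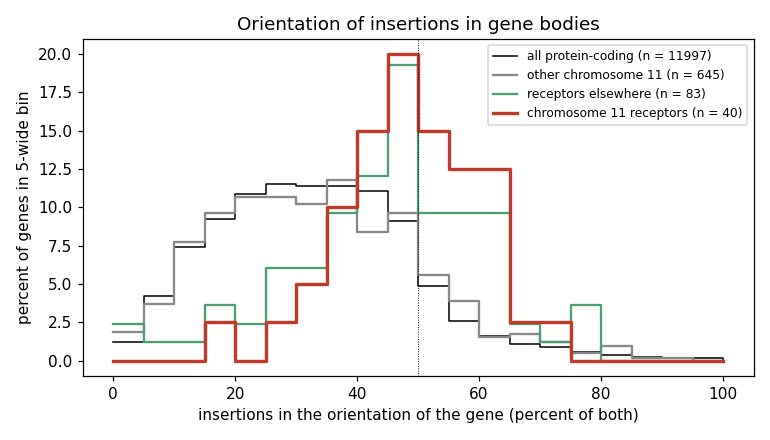
Percent of genes (vertical axis) by the share of insertions in the orientation of the gene (horizontal axis, bins of 5 percentage points), for genes with at least 40 insertions in a body free of genes on the other strand. The 40 members lie around 50% and the 645 other genes of chromosome 11 mostly below it.

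Named members lay on both sides. OR2AT4 had 847 same-strand and 1223 opposite insertions (40.9% same-strand, adjusted p = 1.16e-15, edgeR). OR8G5 had 115 and 261 (30.6%, adjusted p = 2.44e-13) and OR10G8 15 and 74 (16.9%, adjusted p = 3.23e-09). OR5AN1, a receptor for musk odorants, had 72 and 138 (34.3%, adjusted p = 1.76e-05). OR52H1 had more in its own orientation, with 193 and 107 (64.3%, adjusted p = 2.12e-06). In the heavily used bodies of OR52A1 (914 and 922) and OR52A5 (2601 and 2428), the shares were 49.8% and 51.7% (adjusted p = 0.868 and 0.0225), and OR52A5 was among the 10 with more. By cluster the shares were 51.7% ± 1.37 in cluster 1, 49.0% ± 6.48 in cluster 5 and 43.9% ± 3.99 in cluster 7, and cluster 4, with 414 insertions, had 49.9% ± 13.2.

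Between helpers the members were close. Over all windows the hyPBase libraries had a ratio of 1.08 ± 0.022, and those made with hyPBase-centrip also had 1.08 (± 0.030, SD, n = 10 per helper). In the edgeR comparison 67 members had enough insertions, of which 2 were lower with hyPBase-centrip and 0 higher, and 6 had an unadjusted p below 0.05, as had 2381 of the 15852 genes tested. Over 15852 genes, 1.55% were lower and 0.763% higher. OR51V1 had a library-scaled count (CPM) of 91.9 ± 4.7 with hyPBase, from 85.5 to 100.8 with a median of 92.0, and 77.4 ± 8.0 with hyPBase-centrip, from 58.6 to 89.3 with a median of 78.8. The libraries overlapped, and the log2 difference was -0.23 ± 0.052 (SE, adjusted p = 0.00344). OR52A5 had 191 ± 14 and 173 ± 12 CPM, a log2 difference of -0.14 ± 0.039 (adjusted p = 0.0294). Neither passed with insertions of at least 2 reads, with barcodes collapsed or, for OR52A5, without flanks, where OR51V1 had too few insertions to be tested. The log2 differences stayed near the first values, at -0.19 and -0.24 for OR51V1 and at -0.13, -0.13 and -0.14 for OR52A5. DESeq2 called both. The window of OR51V1 reaches into the beta-globin interval.

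The genes that olfactory neurons use with the receptors did not share one level. Of 14 genes of olfactory signal transduction, 8 were higher than their chromosome, 5 lower and 1 neither, close to the 58.4% higher and 33.5% lower of all genes. GNAL, the olfactory G protein subunit, lay at 2.59 ± 0.19 and CNGB1, a channel subunit, at 1.76 ± 0.20. PDE1C, a phosphodiesterase, lay at 0.306 ± 0.022 and ANO2, a chloride channel, at 0.480 ± 0.048. Of the 3 genes that bring receptors to the cell surface, REEP1 was higher (1.88 ± 0.21), RTP2 lower (0.679 ± 0.32) and RTP1 neither (0.987 ± 0.23). Of 6 genes known to act in receptor choice, 4 were higher, among them CBX5, which encodes heterochromatin protein HP1 alpha (5.46 ± 0.36), and 2 were lower, EBF1 (0.645 ± 0.034) and LDB1 (0.399 ± 0.18).

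Among members with known odorants, picked for that reason after their values had been seen, levels differed as widely. OR51E1 and OR51E2, receptors for short fatty acids that are known from the prostate and lie next to each other, had ratios of 2.78 ± 0.25 and 0.693 ± 0.14. OR51E1 exceeded the chromosome in every library and OR51E2 in none. In the window of OR51E1, 130 of 1072 insertions lay in the body, which holds 76 of its 133 TTAA sites. For OR51E2 the body held 201 of 358 insertions and 105 of 178 sites. The high value of OR51E1 thus came mostly from its flanks. OR5A1, a receptor for beta-ionone, lay at 1.02 ± 0.15 and did not pass the test. OR8D1, a receptor for sotolone, lay at 1.54 ± 0.24 and OR2AG1, a receptor for amyl butyrate, at 0.828 ± 0.21.

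Insertions in receptor genes rested on slightly fewer reads. An insertion in the member windows had 3.21 ± 0.67 reads, against 3.46 ± 0.78 over chromosome 11, a ratio of 0.930 ± 0.023 that was below 1 in 20 of 20 libraries. It had 2.47 ± 0.57 reads in cluster 4, 3.00 ± 0.67 in cluster 1 and 6.35 ± 1.42 in the window of OR2AT4. The part of read depth in the density values was not tested. With at least 2 reads the density of cluster 4 was 0.141, with at least 3 it was 0.117, and that of OR2AT4 was 11.5 and 13.3.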

How the data were processed

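Calling Cards insertions of K562 cells were analysed from 20 libraries, 10 per helper. For each library the authors deposited a qbed table whose lines hold position, raw count of reads, orientation and barcode. Submitters' processing notes name Trimmomatic, SAMtools and BWA and the build hg38; versions and filters are not given in the sources used here. Each line was taken as 1 insertion. All insertions on chromosomes 1 to 22, X and Y lay on a TTAA. The TTAA positions came from the hg38 sequence and the genes from GENCODE 44. Scripts ran in Python 3.11.15, numpy 2.4.6 and pandas 2.3.3.

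Density, the main quantity, was insertions per TTAA site over that of the chromosome. Insertion counts were tested with edgeR 4.0.16 in R 4.3.3 by quasi-likelihood with Benjamini-Hochberg adjustment over all genes: density against the chromosome (intercept fit with offsets, at least 10 TTAA sites), orientation with a library block (at least 40 insertions), and helpers (TMM, filterByExpr with a minimum of 10). The density test treats spread between libraries as its error, so small deviations passed in dense genes. In simulated data with 200 changed genes, the density test over 19882 genes recovered 33.5% at 1.2-fold and 88% at 1.5-fold. The orientation test over 11997 genes recovered 88% at 2-fold, and the helper test over 15852 genes 88.5% at 1.5-fold and 96% at 2-fold. The simulated orientation counts had counting error only and equal shares in unchanged genes, unlike the data. The density simulation used a fixed spread and put unchanged genes at the chromosome density. Recovery in the data may therefore differ.

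Members, lists and tests were chosen with earlier results of these data known. Named genes were all members within 150 kb of the beta-globin interval, the 3 highest and 3 lowest of clusters with at least 10 members, every member of smaller clusters, the smallest adjusted p in the orientation and helper tests, neighbours of extreme density, and the most used TTAA of each cluster, of which 1 site and 1 neighbour are not reported here. Protein identity of members was part of this rule and was not computed, since protein sequences were not used here. Alternatives covered reads per insertion, barcodes, unique flanks of 50 bases, window size, references, DESeq2 1.42.0, a replicate block and omission of a library. Windows built on coding parts, the omission of OR2AT4 and of near-globin members, and short bodies were added after seeing the data. Replicate numbers did not pair the libraries. Figures were drawn with matplotlib 3.10.9.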

Additional observations from a re-analysis of the deposited data

Results flagged for a closer look

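In hyPBase-centrip replicate 3, with 1638175 insertions the smallest of its helper, 3 values lay far below the other 9 libraries of that helper. The density of all member windows was 1.003 against 1.06 in the next library, that of cluster 1 was 1.67 against 1.76, and that of cluster 7 was 1.01 against 1.10. Of 26 groups of 10 libraries checked, chance would give about 1.3 such flags. The windows of clusters 1 and 7 are part of the total, so the 3 values are not separate observations. Without this library the density of all member windows was 1.08.

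The 2 libraries whose labels name different helpers also held insertions in receptor genes. Their member windows lay at 1.106 (2380727 insertions in the library) and 1.118 (1854375 insertions) times chromosome 11, both within the range of the 20 other libraries. In these 2 libraries cluster 4 lay at 0.150 and 0.137 and the near-globin members at 3.95 and 3.94, within that range. Outside it lay OR2AT4 in the first (8.16, lowest of the 20 at 8.63), cluster 3 in the second (0.0394, lowest 0.0525), cluster 5 in the first (0.800, highest 0.762), the other members of cluster 1 in the second (1.105, highest 1.045) and cluster 7 in the first (1.198, highest 1.195).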

How the results depend on the processing

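The summed density of all member windows and the number of members called lower both depended on which genes and bases were counted. The sum of 1.08 moved to 1.03 with at least 2 reads, 0.993 with at least 3, 1.56 without flanks, 0.967 with 10 kb flanks, 1.14 against the mean of chromosomes 1 to 22 and X, 0.927 without the members that overlap the beta-globin interval, 0.922 with windows on coding parts, and 0.641 without OR2AT4 and the near-globin members, so 5 of 13 alternatives turned it below the chromosome; leaving out genes or flanks changes what is summed, and the cause of the change with reads was not tested. Cluster 7 turned to 0.994 with at least 2 reads and 0.911 with at least 3. The count of 125 members lower than the chromosome stayed between 94 (barcodes collapsed) and 130 (at least 2 reads), except for 45 without flanks, where only members with at least 10 TTAA sites in the body were tested. With barcodes collapsed, 49 rather than 26 members were higher, and without flanks 23 were. The same-strand share of 48.9% was 50.7% with at least 3 reads, 47.6% with flanks and 50.0% without OR2AT4. The near-globin ratio of 4.14 was 2.80 with barcodes collapsed, 3.49 without flanks, 4.47 within 100 kb, 3.74 within 250 kb and 5.43 on coding parts. The ratio of bodies to flanks of 1.90 was 1.72 with barcodes collapsed and 1.27 without OR2AT4 and the near-globin members. The 2 members lower with hyPBase-centrip became 0 with at least 2 reads, with barcodes collapsed and without flanks, where the 366 genes called became 305, 22 and 305, while the log2 differences of the members stayed between -0.24 and -0.13; over the alternatives their adjusted p ran from 0.00301 to 0.312 for OR51V1 and from 0.0222 to 0.635 for OR52A5. Replicate numbers did not pair the libraries: over 10 pairs the correlation of deviations had a median of 0.0042 and none exceeded 0.1. Of the 10 hyPBase libraries, 1 correlated best with the hyPBase-centrip library of its own number. A replicate block gave 2 members and 346 genes against 366 without it. Low depth limits single members of clusters 2 to 4, where many libraries held 0 to 5 insertions in a window.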
